A study of Homo sapiens with 4 samples.

Results

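The genes described here are 44 genes of protein folding, membrane translocation and quality control in the endoplasmic reticulum (ER), taken by gene symbol from an expression table of 16834 human genes. They were read as 6 classes, namely 9 chaperones built around BiP and GRP94 with their cofactors, 3 genes of the lectin chaperone cycle, 8 disulfide and prolyl isomerases and related genes, 11 genes of ER-associated degradation (ERAD), 9 translocon genes and 4 signal peptidase genes. The rule names the genes and uses no threshold on a measured value, but the names were chosen with results of these data known. All 44 symbols were in the table, and 43 had enough reads for a fold change. DERL3, an ERAD gene, had 0 reads in the control, neobractatin (NBT) and trametinib libraries and 1 read in the combination library, below the limit of 3 reads, so no fold is given for it.

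RNA was sequenced from cells titled MIA PaCa-2, an established line of human pancreatic ductal adenocarcinoma (PDAC), labelled as wild type. The cells were left as control, or received 1 µM NBT, a natural compound from Garcinia bracteata, or 5 µM trametinib, which inhibits the kinase MEK, or both drugs together at those doses, each for 12 h. The study asked how the drugs act together in PDAC cells. Each condition was 1 library, so nothing here could be checked against a replicate, and the variation between cultures cannot be told apart from the effect of a drug. Estimated reads per library ran from 18776212 in the control to 19614763 in the combination, with 19437747 for NBT and 18949915 for trametinib. The sample titles name MIA PaCa-2 in all 4 libraries, whereas a cell line entry in the labels carries a different number for each library.

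Some epithelial markers were abundant in all 4 libraries, with KRT8 at 3799 TPM (a level scaled for transcript length and library size) and EPCAM at 242 TPM in the control. Others were low, with KRT7 at 5.74 TPM or less and MUC1 at 6.29 TPM or less in every library. KRT19 and CFTR had no entry. The summed level of the 7 epithelial and ductal markers in the table was 7308 TPM in the control, 6138 under NBT, 3574 under trametinib and 2774 under the combination. KRT8 and KRT18 made up most of this sum, at 3799 and 3142 TPM in the control and 1493 and 995 TPM under the combination. EPCAM was at 218 TPM under the combination. The epithelial marker CDH1 was at 85.4, 51.2, 86.9 and 57.0 TPM in the control, NBT, trametinib and combination libraries. The 3 mesenchymal markers listed as known of this line were low. VIM was between 11.5 and 26.4 TPM, ZEB1 between 1.04 and 2.61 TPM and CDH2 at 0.08 TPM or less. These low levels differ from what the list gives for the line, whose name is that of the titles and was not tested. Markers of acinar, endocrine, fibroblast and endothelial cells summed, for each type on its own, to 1.88 TPM or less in every library. Among immune markers, CD68 was listed at 91.9 to 139 TPM, while LYZ stood at 1.99 to 2.58 TPM and PTPRC at 0.99 TPM or less. CD3E was at 0 TPM in the control and NBT libraries, 4.23 TPM with trametinib and 2.14 TPM with the combination. The part of these differences in the results below was not tested.

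Secreted and membrane proteins enter the ER through the SEC61 channel, lose their signal peptide to the signal peptidase, and fold with the help of BiP and GRP94, of the lectins calnexin and calreticulin and of protein disulfide isomerases. Proteins that fail to fold are recognised, drawn back to the cytosol and degraded through ERAD. When unfolded proteins accumulate, the sensors IRE1, PERK and ATF6 start the unfolded protein response (UPR), which raises transcription of many of these genes. Pancreatic exocrine cells are known for a large ER and a high load of secretory protein.

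The promoters of several members hold the ER stress response element (ERSE), which is known to be read by ATF6 and XBP1 together with the CCAAT factor NF-Y. RefSeq promoter windows (GRCh38.p14) from 250 bases before to 50 bases after a start site were on hand for 40 of the 44 members. Each motif was searched on both strands. ERSE, searched as CCAAT and CCACG with any 9 bases between them, was present in 6 of the 40 members (15%), against 0.0769% of 35116 windows and 0.150% of 13337 genes of the expression table with a window. These members were HSPA5, HSP90B1, CANX, CALR, PDIA6 and CRELD2. The related ERSE-II, ATTGG and CCACG with any 1 base between them, was present in 3 of 40 members (7.50%), HYOU1, SDF2L1 and HERPUD1, against 0.0541% of windows and 0.105% of genes of the table.

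The following stretches are printed because they hold every ERSE or ERSE-II of members with a single start site in the reference. They are read 5′ to 3′ on the strand of the gene, with the matches in capitals and 12 flanking bases in lower case, and all lie upstream of the start site. HSPA5 is shown at chr9:125241379-125241421 on the minus strand, from 78 to 36 bases before the start. HSP90B1 is at chr12:103930204-103930351 on the plus strand, with 2 matches. CALR is at chr19:12938372-12938414, plus strand, and CRELD2 at chr22:49918542-49918584, plus strand. For ERSE-II, HYOU1 with 2 matches is at chr11:119057262-119057402, minus strand, SDF2L1 at chr22:21642102-21642136, plus strand, and HERPUD1 at chr16:56932013-56932047, plus strand.
HSPA5: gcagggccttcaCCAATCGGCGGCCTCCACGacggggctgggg
HSP90B1: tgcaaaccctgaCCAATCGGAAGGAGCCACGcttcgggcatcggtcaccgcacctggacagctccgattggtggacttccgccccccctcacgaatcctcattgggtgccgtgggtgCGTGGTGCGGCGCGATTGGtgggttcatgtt
CALR: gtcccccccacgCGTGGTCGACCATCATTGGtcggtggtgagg
CRELD2: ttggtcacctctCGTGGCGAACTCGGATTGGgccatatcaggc
HYOU1: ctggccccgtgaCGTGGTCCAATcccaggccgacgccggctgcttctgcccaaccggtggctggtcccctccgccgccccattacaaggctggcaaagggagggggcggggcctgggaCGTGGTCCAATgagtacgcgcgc
SDF2L1: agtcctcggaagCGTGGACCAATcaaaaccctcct
HERPUD1: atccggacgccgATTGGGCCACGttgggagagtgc

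Other response elements differed in how often they were found. The UPR element TGACGTGG was in 6 of the 40 members (15%), DNAJC10, HYOU1, TXNDC5, SSR3, SEC62 and SSR4, against 1.15% of genes of the table, and in HYOU1 it overlapped the upstream ERSE-II. The amino acid response element searched as TGATGCAA was in HERPUD1 alone (2.50%, against 0.832% of genes of the table). The cyclic AMP element TGACGTCA was in 0 of 40 members, against 3.33% of genes of the table. A plain CCAAT box, which is part of every ERSE, was in 31 of 40 members (77.5%), in 9 of 9 chaperones, and in 42.5% of genes of the table. These matches are letters in a window and not measured binding.

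Across the 44 genes, both libraries that received NBT stood above both libraries that did not for most members. Reads were scaled to the library sum, and log2 ratios were computed with 0.5 reads added. A gene is said to have risen or fallen where the ratio of the 2 libraries was at least 2-fold and its adjusted value in an exact binomial test, with Benjamini-Hochberg adjustment over all genes, was at most 0.05. Relative to control, NBT raised 11 members, whereas 1.60% of 15888 genes tested rose. The combination raised 14 members against control, with 4.73% of 16229 genes rising. Trametinib raised 0 members, with 3.82% of 16197 genes rising. When NBT was added to trametinib, 17 members rose, with 2.56% of 16343 genes rising, and when trametinib was added to NBT, 0 rose, with 2.38% of 16250 genes rising. In the same order of comparisons 1.01%, 3.69%, 2.15%, 3.55% and 1.99% of all genes fell, and 0 members fell in any of them. With a variation between cultures assumed at a coefficient of 0.4, a negative binomial test called 0 members in any comparison. That test called few genes of any kind. In the same order of comparisons it called 3, 30, 13, 6 and 5 of all genes higher and 1, 21, 9, 8 and 8 lower.

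The median log2 ratio of the 43 members was 0.61 for NBT, -0.10 for trametinib and 0.81 for the combination against control, where all genes tested had medians of -0.01, 0.08 and 0.05. It was 0.80 when NBT was added to trametinib and 0.16 when trametinib was added to NBT, beside -0.04 and 0.03 over all genes. The 95% counting interval of the ratio lay above 0 for 40 of 43 members with NBT and below 0 for 0. Over all genes tested, 19.6% lay above 0 and 21.6% below. Because the interval narrows with reads, the same shares were taken over the 7988 genes with at least 500 reads in some library, a limit that all 43 members met, and were 29.4% above and 34.5% below. Intervals of this kind cover counting error only. Values in bulk RNA are relative amounts, and fewer cells of a type cannot be told apart from less RNA per cell.

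**Figure D1:**
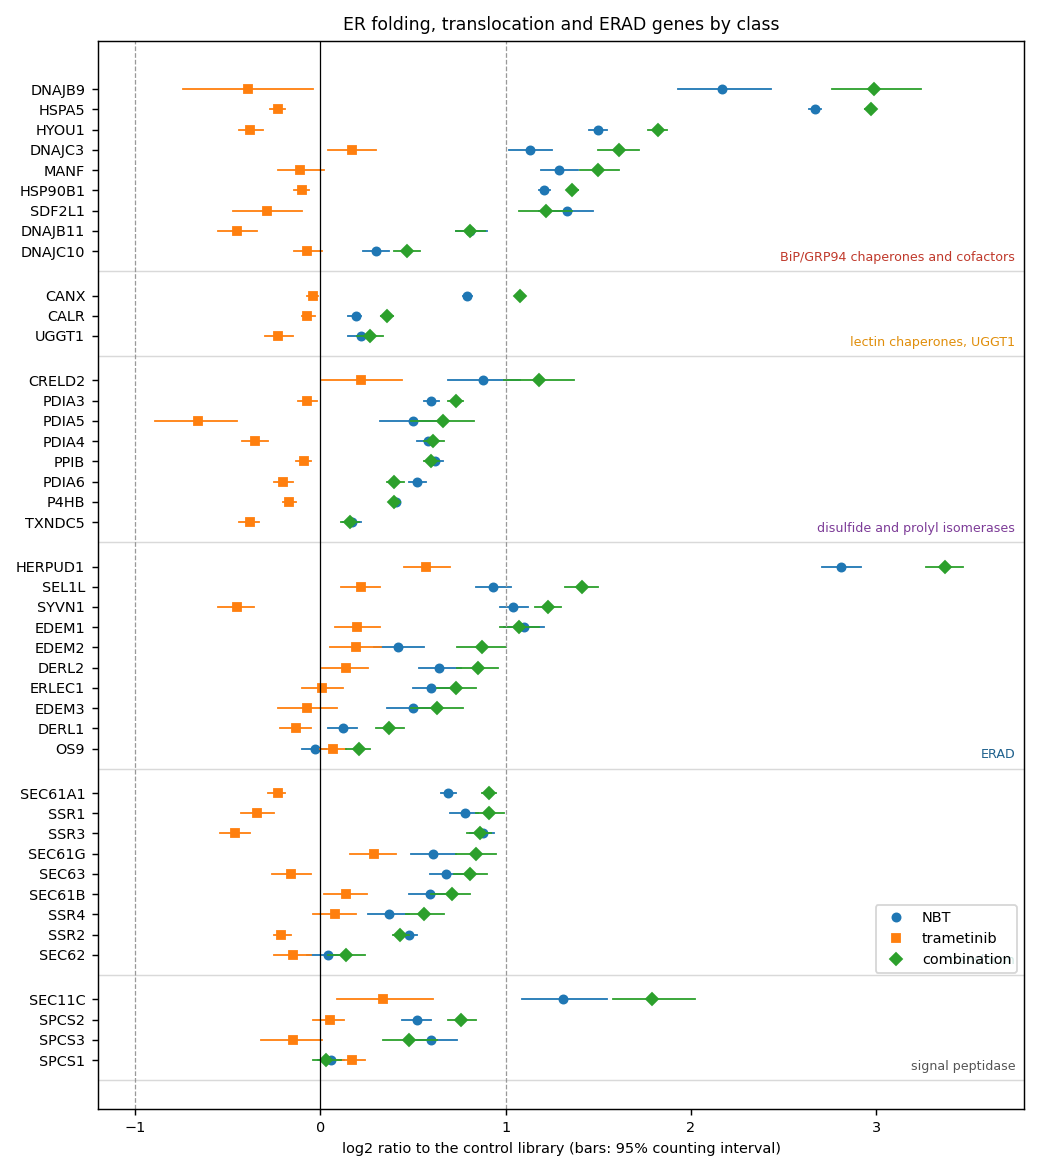
Log2 ratio to the control library (x axis) of the 43 members with a fold, grouped by class, for NBT (circles), trametinib (squares) and the combination (diamonds), with bars for the 95% counting interval and dashed lines at a log2 ratio of 1 and -1. HERPUD1, HSPA5 and DNAJB9 lie farthest right, and all trametinib points lie between -0.66 and 0.57.

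The chaperone class had the highest class median in each comparison of a library with NBT against a library without it. Of its 9 members, 7 rose with NBT, 7 with the combination and 8 when NBT was added to trametinib, with class medians of 1.29, 1.5 and 1.5. HSPA5 encodes BiP, the Hsp70 of the ER, which also binds the sensors of the UPR. It stood at 249 TPM in the control library, 1516 under NBT, 209 under trametinib and 1900 under the combination. Scaled reads were 6.37-fold the control with NBT and 7.83-fold with the combination, and the gene moved from the 9th highest level among the 44 members in the control to the highest in the combination. The log2 ratio to control was 2.67 for NBT (95% counting interval 2.64 to 2.70), -0.23 for trametinib (-0.27 to -0.19) and 2.97 for the combination (2.94 to 3.0).

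DNAJB9, also called ERdj4, is a J-domain cofactor of BiP that also restrains IRE1. It had 162, 756, 125 and 1349 reads in the control, NBT, trametinib and combination libraries, or 7.12, 30.6, 5.35 and 55.2 TPM. Its order was trametinib, control, NBT and combination, with each step beyond counting error. The log2 ratio was 2.17 with NBT (1.93 to 2.43) and 2.99 with the combination (2.76 to 3.24). HYOU1, a large Hsp70 relative that exchanges nucleotide on BiP, was at 102, 277, 77.3 and 351 TPM in the same order of libraries. The log2 ratio of HYOU1 was 1.5 with NBT and 1.82 with the combination.

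HSP90B1, which encodes GRP94, the Hsp90 of the ER, had the 6th highest level of the members at 396 TPM in the control, with 875 TPM under NBT, 363 under trametinib and 989 under the combination. It rose by a log2 ratio of 1.21 with NBT and 1.36 with the combination. SDF2L1, a partner of ERdj3, was at 72.0, 172, 58.0 and 163 TPM. Here the combination was not above NBT alone, with a log2 ratio between them of -0.11 (-0.22 to 0.00). MANF, a secreted stress protein that binds BiP, was at 127, 297, 116 and 351 TPM and rose by 1.29 with NBT and 1.5 with the combination.

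DNAJC3, the cofactor p58IPK that also inhibits PERK, was at 16.3 TPM in the control, 34.3 under NBT, 18.0 under trametinib and 48.9 under the combination. With library-sum scaling it was the only chaperone with an interval above 0 for trametinib alone (0.17, 0.04 to 0.30). That ratio was 0.09 with edgeR and 0.10 with DESeq2 scaling. DNAJC3 rose by 1.13 with NBT and 1.61 with the combination. DNAJB11, or ERdj3, was at 120, 201, 86.5 and 205 TPM. Its log2 ratio missed the limit against control at 0.81 for both NBT and the combination, and passed it at 1.25 when NBT was added to trametinib, where its own level with trametinib alone was the lowest of the 4. The smallest ratios of the class were those of DNAJC10, a J-domain disulfide reductase, at 14.2, 16.7, 13.4 and 19.2 TPM, with log2 ratios of 0.30 for NBT and 0.47 for the combination.

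**Figure D2:**
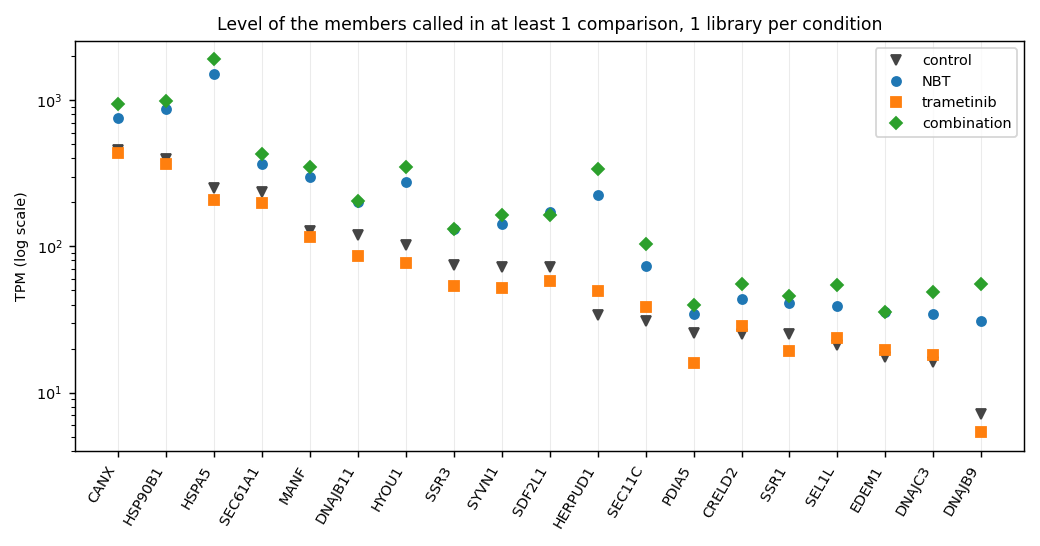
Level in TPM (log scale) of the 19 members that rose in at least 1 comparison, ordered by their level in the control, with a marker for each of the 4 libraries. NBT and combination points lie above the control and trametinib points for each gene. This order is partly set by the choice of genes, since each rose in a library with NBT over a library without it. Combination points run from 35.8 TPM for EDEM1 to 1900 TPM for HSPA5.

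Of the 3 lectin cycle genes, 0 rose with NBT and 1 with the combination. CANX encodes calnexin, the membrane lectin that holds glycoproteins during folding. Its level was 456 TPM in the control, 756 under NBT, 438 under trametinib and 941 under the combination. CANX passed the limit with the combination at a log2 ratio of 1.08 (1.05 to 1.10) and not with NBT at 0.79 (0.77 to 0.82). The soluble lectin calreticulin, CALR, was at 669, 727, 627 and 836 TPM, with log2 ratios of 0.19 for NBT and 0.36 for the combination. UGGT1, the folding sensor that returns glycoproteins to the lectins, was at 30.4, 34.6, 26.1 and 36.2 TPM, with 0.22 for NBT and 0.27 for the combination. In all 3 genes the interval lay below 0 for trametinib alone.

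Among the 8 isomerase genes the intervals lay above 0 for every gene with NBT and with the combination, at class medians of 0.55 and 0.61. In this class 0 members rose with NBT and 1 rose with the combination. That gene was CRELD2, a secreted protein with disulfide isomerase activity, at 25.0 TPM in the control, 43.9 under NBT, 28.6 under trametinib and 54.9 under the combination. The log2 ratio of CRELD2 was 0.88 for NBT (0.69 to 1.08) and 1.18 for the combination (0.99 to 1.37). PDIA5, a disulfide isomerase of low abundance, was at 25.6, 34.5, 15.9 and 39.4 TPM. It had the lowest log2 ratio of all members with trametinib alone at -0.66 (-0.89 to -0.45), and rose by 1.32 when NBT was added to trametinib.

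The abundant isomerases P4HB, PPIB and TXNDC5 had log2 ratios between 0.17 and 0.62 with NBT. P4HB, the canonical protein disulfide isomerase, was at 717, 906, 627 and 919 TPM. PPIB, which encodes the prolyl isomerase cyclophilin B, had the highest level of all members in the control at 1057 TPM, and was at 1555, 976 and 1562 TPM with NBT, trametinib and the combination. TXNDC5, a thioredoxin-domain isomerase, had the smallest ratios of the isomerase class, 0.17 with NBT and 0.16 with the combination, at 210, 226, 158 and 228 TPM. PDIA3, PDIA4 and PDIA6, the remaining disulfide isomerases, had log2 ratios between 0.52 and 0.60 with NBT and between 0.40 and 0.73 with the combination.

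ERAD genes ranged from the largest ratios to control of all members to ratios near 0. HERPUD1 encodes Herp, a membrane protein of the ERAD complex. Its level was 33.7 TPM in the control, 226 under NBT, 49.2 under trametinib and 338 under the combination. With trametinib alone HERPUD1 also stood above the control, with a log2 ratio of 0.57 (0.45 to 0.70), short of the 2-fold limit. The ratio was 2.81 for NBT (2.71 to 2.92) and 3.37 for the combination (3.27 to 3.47), and it was 2.80 when NBT was added to trametinib.

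The ubiquitin ligase of the main ERAD complex and its adaptor had trametinib ratios of opposite sign. SYVN1, the ligase HRD1, was at 72.0 TPM in the control, 142 under NBT, 51.7 under trametinib and 164 under the combination. SEL1L, its adaptor, was at 21.0, 38.9, 23.5 and 54.6 TPM. With trametinib alone the log2 ratio was -0.45 (-0.55 to -0.36) for SYVN1 and 0.22 (0.11 to 0.32) for SEL1L. SYVN1 rose by 1.04 with NBT and 1.23 with the combination. SEL1L missed the limit with NBT at 0.93 (0.84 to 1.03) and rose by 1.41 with the combination.

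EDEM1, which trims mannose from glycoproteins bound for degradation, was at 17.5, 35.8, 19.7 and 35.8 TPM in the 4 libraries. The libraries with NBT did not differ beyond counting error, and EDEM1 rose by 1.10 with NBT and 1.07 with the combination. Its relatives EDEM2 and EDEM3 had log2 ratios of 0.42 and 0.50 with NBT and 0.87 and 0.63 with the combination. DERL2 and ERLEC1, a channel component and a lectin, had 0.64 and 0.60 with NBT and 0.85 and 0.73 with the combination. DERL1 had 0.12 and 0.37. OS9, another ERAD lectin, was at 142, 132, 146 and 158 TPM, and its interval for NBT held 0 (-0.03, -0.10 to 0.03).

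Most translocon genes had ratios of similar size, short of the 2-fold limit. Of 9 genes, 0 rose against control, yet 8 had intervals above 0 with NBT and 9 with the combination, at class medians of 0.61 and 0.81. SEC61A1, the channel-forming subunit, was at 236 TPM in the control, 364 under NBT, 197 under trametinib and 431 under the combination. SSR1 and SSR3, subunits of the translocon-associated complex TRAP, were at 25.0, 40.9, 19.4 and 45.8 TPM and at 74.6, 131, 53.2 and 132 TPM. These 3 genes rose when NBT was added to trametinib, by 1.14 for SEC61A1, 1.26 for SSR1 and 1.32 for SSR3, and had the lowest trametinib values of the class at -0.23, -0.34 and -0.46.

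Subunits of the same complex did not all move alike with trametinib alone. SEC61G, the gamma subunit, was at 268, 391, 322 and 470 TPM, with a log2 ratio of 0.29 (0.16 to 0.41), and SEC61B, the beta subunit, had 0.14 (0.02 to 0.25), while SEC61A1 had -0.23 (-0.28 to -0.19). SEC62, which serves translocation after translation, had the smallest ratios of the class against control for NBT and the combination, at 28.5, 27.6, 24.8 and 30.9 TPM, with 0.04 for NBT (-0.07 to 0.14) and 0.14 for the combination. Its partner SEC63 had 0.68 and 0.81. SSR2 and SSR4 had 0.48 and 0.37 with NBT and 0.43 and 0.56 with the combination.

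Of the 4 signal peptidase genes, SEC11C, a catalytic subunit, had the largest ratios to control with NBT and the combination. It had 220, 567, 282 and 798 reads, or 30.7, 73.3, 38.2 and 104 TPM, in the control, NBT, trametinib and combination libraries. It rose by 1.31 with NBT (1.09 to 1.55) and by 1.79 with the combination (1.58 to 2.02). SEC11A, the other catalytic subunit and not a member, had log2 ratios of 0.12 with NBT and 0.18 with the combination. The accessory subunit SPCS1 was at 80.5, 80.1, 88.7 and 80.3 TPM, with 0.06 for NBT (-0.01 to 0.13) and 0.03 for the combination (-0.04 to 0.11). It was the member with the lowest combination ratio, and its interval lay below 0 when NBT was added to trametinib (-0.13, -0.20 to -0.06). SPCS3 was at 14.9, 21.6, 13.2 and 20.3 TPM, and SPCS2 and SPCS3 had 0.52 and 0.60 with NBT.

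Summed over the 44 genes, the share of all reads was 0.866% in the control library and 0.793% under trametinib, beside 1.62% under NBT and 1.84% under the combination. HSPA5 alone took 0.0496%, 0.316%, 0.0423% and 0.388% of reads, and the chaperone class 0.167%, 0.581%, 0.147% and 0.694%. The isomerase class, the largest class in the control at 0.262%, was at 0.367% with NBT and 0.368% with the combination. ERAD genes took 0.0786%, 0.142%, 0.0808% and 0.177%. At this depth the 95% Clopper-Pearson interval of the total was 0.862% to 0.870% in the control and 1.83% to 1.84% in the combination, and it covers counting error only.

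**Figure D3:**
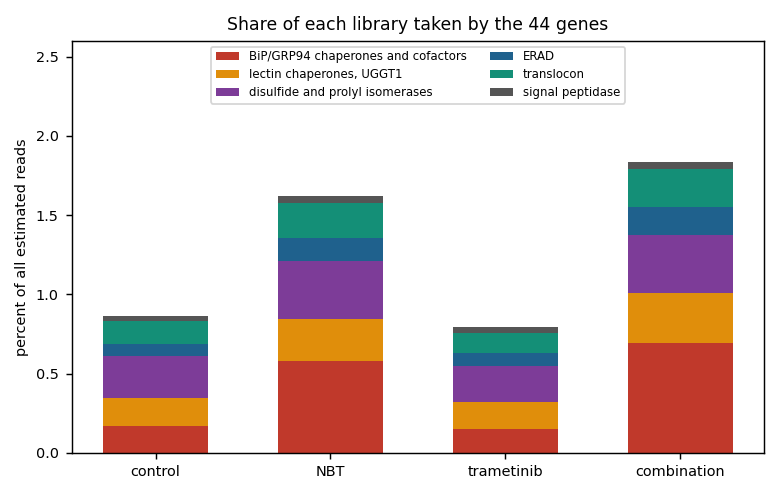
Percent of all estimated reads of each library (y axis) taken by the 44 genes, stacked by class. The bars reach 0.866% in the control, 1.62% under NBT, 0.793% under trametinib and 1.84% under the combination, and the chaperone segment grows from 0.167% in the control to 0.694% in the combination.

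The effect of NBT can be read in 2 pairs of libraries that share none, NBT against control and the combination against trametinib. Of the members, 10 rose in both pairs, 1 (EDEM1) rose only without trametinib and 7 rose only with it, namely DNAJB11, CANX, PDIA5, SEL1L, SEC61A1, SSR1 and SSR3. The 7 had log2 ratios of 0.50 to 0.93 without trametinib and 1.12 to 1.32 with it, and EDEM1 had 1.10 and 0.88. These counts therefore depend on where the limit of 1 lies. Of all genes tested, 1.60% rose without trametinib and 2.56% with it, and their overlap was not computed. The log2 ratio with trametinib exceeded that without it beyond counting error in 30 of 43 members, was below it in 2 and was not separated in 11. The median difference was 0.24, with a range from -0.22 for EDEM1 to 1.21 for DNAJB9. Over the 11367 genes with at least 50 reads the median difference was -0.03, with 19.1% larger and 24.0% smaller. All 43 members had at least 500 reads, so their intervals tend to be narrower than those of these genes. Shares over genes of that depth were not computed for this difference. HERPUD1 was among the members not separated, with a difference of -0.02 (-0.15 to 0.11).

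**Figure D4:**
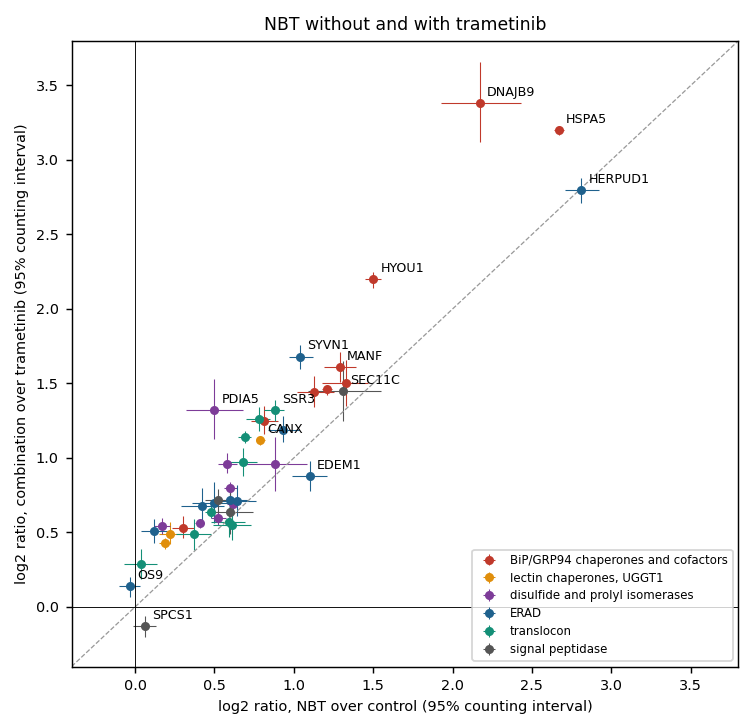
Log2 ratio of the 43 members for NBT over control (x axis) and for the combination over trametinib (y axis), with 95% counting intervals and a dashed line of equal values, coloured by class. Most points lie above the line, DNAJB9 farthest at 2.17 and 3.38, while EDEM1 at 1.10 and 0.88 lies below it.

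Trametinib alone left 12 members with intervals above 0 (28.3% of all genes tested) and 24 with intervals below 0 (19.3%), and 7 held 0. Over the 7988 genes with at least 500 reads, 38.3% lay above 0 and 31.8% below. With edgeR or DESeq2 scaling the members' counts were 6 above and 27 below. By class, the intervals lay below 0 in 6 of 9 chaperones, 3 of 3 lectin genes, 7 of 8 isomerases, 6 of 9 translocon genes and 2 of 10 ERAD genes with a fold. The ERAD class had 6 genes with intervals above 0 and a median of 0.10, and the signal peptidase 2 of 4. When trametinib was added to NBT, 30 members lay above 0 (23.4% of all genes), 2 below (19.3%) and 11 held 0, while edgeR scaling gave 26 above and 6 below. The genes with at least 500 reads lay above 0 in 34.1% and below in 30.8%. For the combination against control, 42 members lay above 0 (27.9% of all genes), 0 lay below (25.2%) and 1 held 0. When NBT was added to trametinib, 42 lay above 0 (22.6%) and 1 below (26.9%). Among genes with at least 500 reads, these shares were 38.1% above and 39.6% below for the combination against control, and 35.4% and 39.8% for NBT added to trametinib.

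For 14 of 43 members (32.6%) the interval lay below 0 with trametinib alone and above 0 when trametinib was added to NBT, which held for 2.23% of the 11367 genes with at least 50 reads. The opposite pattern was found in 0 members and in 3.11% of those genes. Since all 43 members had at least 500 reads, their intervals tend to be narrower, which makes either pattern easier to find. Shares over genes of that depth were not computed for these patterns. The 14 were HSPA5, HSP90B1, HYOU1, DNAJB9, CALR, CANX, PDIA3, PDIA5, SYVN1, DERL1, SEC61A1, SEC62, SEC63 and SSR1. None of these trametinib ratios reached 2-fold in either direction. The count of 14 was the same with edgeR and with DESeq2 scaling.

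**Figure D5:**
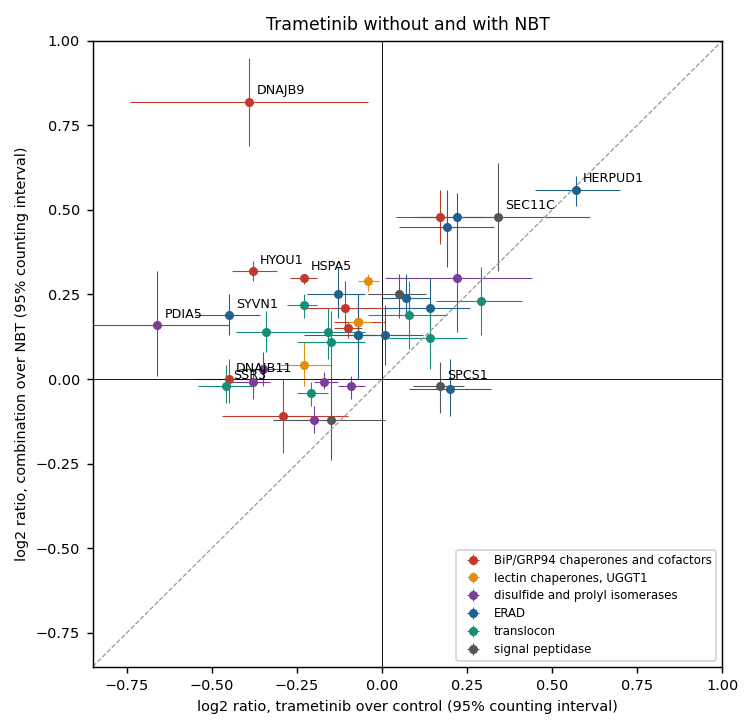
Log2 ratio of the 43 members for trametinib over control (x axis) and for the combination over NBT (y axis), with 95% counting intervals, coloured by class. The upper left quadrant holds the members below control with trametinib alone and above NBT with the combination, DNAJB9 at -0.39 and 0.82 the farthest, and HERPUD1 lies near the line of equal values at 0.57 and 0.56.

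Members with an ERSE or ERSE-II were set beside the other members with a promoter window. Of the 9 with either motif, 5 rose with NBT and 7 with the combination, at medians of 1.21 and 1.22. Of the 31 without, 6 rose with NBT and 7 with the combination, at medians of 0.60 and 0.76. The ranges overlapped. CALR, whose ERSE is printed above, had 0.36 with the combination and PDIA6 had 0.40, whereas DNAJB9, with neither motif in its window, had 2.99.

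XBP1, the UPR factor made active by removal of 26 bases from its RNA by IRE1, was measured as separate RefSeq transcripts. The bases are shown in capitals with 15 bases to each side, at chr22:28796107-28796162 (GRCh38, minus strand), in exon 4 of 5 of the unspliced transcript, and the repeat that flanks them allows the capitals to be placed with a small shift.
XBP1: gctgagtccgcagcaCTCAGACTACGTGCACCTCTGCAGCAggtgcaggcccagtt

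The spliced transcript had 45 reads in the control, 2608 under NBT, 55 under trametinib and 3623 under the combination, and the unspliced 1366, 901, 1561 and 1287. Its share of the reads of both forms was 3.19% (95% Clopper-Pearson interval 2.34 to 4.24) in the control and 3.40% (2.57 to 4.41) with trametinib. With NBT the share was 74.3% (72.8 to 75.8) and with the combination 73.8% (72.5 to 75.0). The shares in the libraries with NBT were similar and lay far from those without it. The reads were divided between the forms by the authors' estimate. Only reads over places where the forms differ, such as the 26 bases, can tell them apart. The intervals of this share treat every read as if it did, so they are narrower than its counting error.

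Of 20 UPR sensors and regulators in a separate list, 6 rose under NBT, 2 under trametinib and 9 under the combination, and 0 fell. DDIT3, the stress factor CHOP, had 196, 1298, 443 and 2589 reads and log2 ratios of 2.67, 1.16 and 3.66. CHAC1 and TRIB3, targets of the PERK arm, rose by 2.35 and 2.02 with NBT and by 2.66 and 2.28 with the combination. ATF3 was instead the largest trametinib rise of the list at 1.68, and reached 3.02 with the combination.

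Other ER genes of the same functions, 80 in 4 lists of folding, ERAD, translocation and the oligosaccharyltransferase, had smaller medians than the 44 members. Members and lists were chosen with earlier results of these data known, and the part of that choice in this difference was not tested. With NBT 2 rose and 0 fell, and with the combination 7 rose and 1 fell, at medians of 0.18 and 0.32 over the 79 with a fold. SERP1, which stabilises membrane proteins at the translocon, rose by 1.16 with NBT and 1.54 with the combination. ERO1B, an oxidase that recharges disulfide isomerases, rose by 1.15 and 1.68. FKBP7, a prolyl isomerase, fell by 1.35 on the log2 scale with the combination, from 47 reads in the control to 19. QSOX1 and PRKCSH, a sulfhydryl oxidase and the beta subunit of glucosidase II, were at -0.72 and -0.59 with the combination.

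Chaperones of other compartments served for comparison. Of 20 cytosolic chaperones, 0 rose with NBT, 2 under trametinib and 4 under the combination, at medians of 0.04, -0.02 and 0.12. The trametinib rises were HSPB1 at 1.88 and DNAJB4 at 1.25, and both were among the 4 with the combination. The others were HSPA1A at 1.68 and HSPA1B at 1.86, which rose with neither drug alone (0.46 and 0.69 with NBT, 0.34 and 0.26 with trametinib). When trametinib was added to NBT, 4 of the 20 rose. Of 11 mitochondrial chaperones 0 rose with NBT, 0 under trametinib and 1 under the combination, at medians of 0.03, -0.05 and 0.07.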

How the data were processed

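RNA of 4 libraries of MIA PaCa-2 cells, 1 per condition, was sequenced on the BGISEQ-500 platform, and libraries were assigned to conditions by the treatment in the labels. The submitters' processing notes name Bowtie2 2.2.5, RSEM 1.2.8 and the build hg38, with no role given. The authors deposited, per gene and per RefSeq transcript, estimated counts without normalization together with TPM and FPKM values. The FPKM values were not used, and the deposited TPM values serve as levels that can be compared between genes. Between 47.6% and 48.0% of the estimated counts in a library were not whole numbers, and reads shared by near-identical copies, such as the processed pseudogenes of PDIA3, HSP90B1 and SPCS2, were divided by that estimate. The labels describe removal of bacterial ribosomal RNA.

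The deposited estimated counts were rounded and scaled to the library sum. Log2 ratios had 0.5 reads added. Calls used an exact two-sided binomial test of 2 libraries given their sum, adjusted by Benjamini-Hochberg over genes with at least 1 read in either, with limits of 0.05 for the adjusted value and 1 for the size of the log2 ratio, after the limits in the study's methods. The test compares 2 libraries and not conditions, so no p-value is given. Intervals are 95% Clopper-Pearson intervals, and those of a difference between 2 ratios use a normal approximation on the log scale. They cover counting error only, and those of the spliced share of XBP1 cover less than that. At 18776212 to 19614763 reads per library a limit of 3 reads was set for giving a fold.

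The members, classes and other lists were chosen with earlier results of these data known. Genes given with values in all 4 libraries are those called in at least 1 comparison and those with the largest or smallest ratio of their class. Of the other lists, at most 3 rises and 3 falls were to be named. P4HB, PPIB, SEC11A, XBP1, ATF3, HSPB1, DNAJB4, HSPA1A and HSPA1B were named outside these rules, after their values were seen. Alternatives were edgeR and DESeq2 scaling, TPM values with a pseudocount of 0.1, other added reads, minimum reads and limits, transcript sums, and a negative binomial test with assumed coefficients of variation of 0.2 and 0.4. The factors and the negative binomial test came from edgeR 4.0.16 and DESeq2 1.42.0 under R 4.3.3, and all else from numpy 2.4.6, pandas 2.3.3, matplotlib 3.10.9 and scipy 1.17.1 under Python 3.11.15.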

Additional observations from a re-analysis of the deposited data

Results flagged for a closer look

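For 5 members, trametinib had ratios of opposite sign without and with NBT, each with a 95% counting interval off 0 and with a difference of at least 0.5 on the log2 scale. This difference is the same quantity as the NBT effect with trametinib minus without it, described above, and not a separate observation. Its counting interval lay above 0 for each of the 5. Against the variation between cultures it was not tested, since each condition is 1 library. The log2 ratio with NBT minus that without was 1.21 for DNAJB9 (-0.39 without, 0.82 with), 0.83 for PDIA5 (-0.66 and 0.16), 0.70 for HYOU1 (-0.38 and 0.32), 0.64 for SYVN1 (-0.45 and 0.19) and 0.53 for HSPA5 (-0.23 and 0.30). The share of all genes that meet this rule was not computed. Without the limit of 0.5, this change of sign held for 32.6% of members and 2.23% of genes with at least 50 reads. The opposite change held for 0 members and 3.11% of those genes.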

How the results depend on the processing

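No paired analysis was possible because each condition is 1 library and the labels carry no replicate numbers, and for the same reason no library could be left out. The number of members called depended on the limit and on the assumed variation between cultures. With a log2 limit of 0.5 it was 30 for NBT, 2 for trametinib (1 higher, 1 lower) and 31 for the combination against control. At that limit it was 37 for NBT added to trametinib and 2 for trametinib added to NBT. Over all genes 785, 1524, 2023, 1294 and 1061 rose in the same order, and 683, 919, 1662, 1700 and 818 fell. With a limit of 2 it was 3 for NBT, 3 for the combination and 4 for NBT added to trametinib, where 81, 248 and 104 of all genes rose. A negative binomial test at a coefficient of variation of 0.2 called 3, 9 and 10 members in these comparisons, and at 0.4 it called 0, 0 and 0. Of all genes it called 51, 296 and 143 higher at 0.2, and 3, 30 and 6 higher at 0.4. The main counts were 11, 14 and 17. The median for NBT added to trametinib was 0.85 with edgeR scaling, against 0.80. Of 1075 log2 ratios of single members recomputed, 1070 kept their side of the limit and 0 reversed. SYVN1 with NBT was at 0.98 from TPM values, short of the limit. Added to trametinib, NBT gave PDIA4 and CRELD2 1.01 with edgeR scaling and SEC63 1.02 with edgeR and 1.00 with DESeq2 scaling, past it. Counts of members beyond counting error were recomputed with edgeR and DESeq2 scaling after the data were seen. This scaling moved the median of all genes by less than 0.1. With 1 library per condition, the depth limits the counting error and not the variation between cultures.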
